A study of Mus musculus with 12 samples.

Results

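The IGF-binding protein genes Igfbp2, Igfbp3, Igfbp4, Igfbp5, Igfbp6 and Igfbp7 are described here in cultured mouse Müller glia, glial cells that span the retina. These 6 genes were chosen by family name, with their levels over the 4 groups of libraries already known, so that those levels are a description and carry no test of their own. All 6 symbols were found among the 49315 genes of the count tables, and all 6 passed the filter on low counts. RNA came from wild-type primary glia that had shared medium through a transwell membrane with cultured retinal pigment epithelium (RPE). The RPE cells, not the glia, had been given 100 nM PNU-282987 (PNU), which activates α7 nicotinic receptors, or only its solvent DMSO. Glia were collected after 2 h or 6 h of co-culture, which gives 4 groups of 3 libraries each: PNU 2 h, DMSO 2 h, PNU 6 h, DMSO 6 h. All groups contained DMSO, which the labels give as 0.1% in one place and as 1% in another, and all cells had been passaged in serum-containing medium before use. Strain, age and sex of the mice are not given in the sources used here, and the labels call the replicates biological without tying them to separate animals or cultures. Every spread and p-value below is therefore between libraries only, and may be technical.

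IGF-binding proteins are secreted proteins that hold insulin-like growth factors (IGFs) outside the cell. They can keep an IGF away from its receptor, store it in the matrix or release it after cleavage by a protease, and several also act on cells without an IGF. In the chick retina, insulin given together with FGF2 makes Müller glia re-enter the cell cycle, which is why the supply of IGFs around these cells is of interest for regeneration.

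Library totals ran from 44332013 to 66518799 counts, and 3 counts, taken as the floor of detection, correspond to 0.0451 to 0.0677 CPM (the count scaled to a library total of 1000000). Such floors cover counting error only. Some libraries of a group were close to copies of each other: replicates 2 and 3 of PNU 2 h, the same replicates of PNU 6 h, and all 3 of DMSO 6 h. Their pairwise biological coefficients of variation were 0.0163 to 0.0223, against 0.15 to 0.382 for the other pairs of 1 group. Their counts still differed by more than sampling noise (chi-square over degrees of freedom of 2.02 to 3.22, against 24.8 to 265 for the other pairs), and they were kept as separate libraries. If they came from 1 culture, n = 3 overstates the replication. In 5 libraries the most similar library was one of another group. Replicate 3 of DMSO 2 h and replicate 1 of PNU 2 h were closest to each other, replicates 1 and 2 of DMSO 2 h and replicate 1 of PNU 6 h to replicate 3 of DMSO 6 h. Replicate 3 of DMSO 2 h and replicate 1 of PNU 6 h were also the farthest from the rest of their own groups, and are called the libraries that stand apart. The glial identity rests on the labels: 6 of 10 Müller glia markers had a median over 1 CPM, but so did 7 of 8 pericyte and smooth muscle markers and 6 of 8 fibroblast markers. Of the Müller glia list, the glial water channel Aqp4 was at most 0.218 CPM and the retinaldehyde-binding protein Rlbp1 at most 0.302 CPM in every library. Gfap was at most 0.326, Kcnj10 at most 0.110 and Slc1a3 at 0.421 to 3.72 CPM. Others of that list were abundant, with Glul at 61.5 to 94.4, Sox9 at 63.4 to 292 and Vim at 6063 to 7451 CPM. A median over 100 CPM was reached by 1 of 10 Müller glia, 5 of 8 pericyte and smooth muscle and 4 of 8 fibroblast markers. Of the pericyte list, Acta2 was at 1502 to 2405 and Pdgfrb at 944 to 1391 CPM, while Rgs5 was at most 0.404 CPM. Of the fibroblast list, the mesenchymal collagen Col1a1 was at 3509 to 4895 CPM, while Lum was at most 1.13 and Fap at most 0.521 CPM. The RPE isomerase Rpe65 was at most 0.0442 CPM. In RNA from a whole culture, fewer cells of a type and less RNA per cell cannot be told apart.

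The members lie on 4 chromosomes of GRCm38. Igfbp2 (ENSMUSG00000039323, chromosome 1, 72824503 to 72852474, plus strand) and Igfbp5 (ENSMUSG00000026185, chromosome 1, 72857932 to 72874884, minus strand) face each other tail to tail, with 5457 bases between them. Igfbp3 (ENSMUSG00000020427, chromosome 11, 7206086 to 7213923, minus strand) faces Igfbp1 in the same way across 3539 bases. Igfbp4 (ENSMUSG00000017493) lies on chromosome 11 at 99041244 to 99054392, Igfbp6 (ENSMUSG00000023046) on chromosome 15 at 102144362 to 102149511, both on the plus strand, and Igfbp7 (ENSMUSG00000036256) on chromosome 5 at 77349240 to 77408041 on the minus strand. All are protein-coding in GENCODE M21, and the principal transcripts of Igfbp2, Igfbp4, Igfbp5 and Igfbp6 have 4 exons each. Igfbp7 overlaps Polr2b, a subunit of RNA polymerase II on the opposite strand, and since use of the strand in counting is not given, reads of that overlap cannot be assigned to one of them.

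The start-site windows of Igfbp2, Igfbp4 and Igfbp5 are shown because these were the members whose CPM differed most between libraries. Each runs from 250 bases before the start to 50 bases after it, 300 bases 5′ to 3′ on the gene's strand, from RefSeq on GRCm38.p6 (chr1:72824230-72824529 plus, chr11:99040994-99041293 plus and chr1:72874816-72875115 minus). Capitals mark 3 motifs searched on both strands: the GC box GGGCGG, the TATA box TATAAA and the E-box CANNTG.
Igfbp2: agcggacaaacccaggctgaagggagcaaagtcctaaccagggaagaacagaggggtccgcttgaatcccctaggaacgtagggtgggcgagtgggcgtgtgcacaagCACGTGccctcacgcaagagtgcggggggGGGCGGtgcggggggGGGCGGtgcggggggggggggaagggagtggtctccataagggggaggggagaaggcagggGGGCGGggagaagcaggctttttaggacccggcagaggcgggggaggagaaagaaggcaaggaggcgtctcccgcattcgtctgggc
Igfbp4: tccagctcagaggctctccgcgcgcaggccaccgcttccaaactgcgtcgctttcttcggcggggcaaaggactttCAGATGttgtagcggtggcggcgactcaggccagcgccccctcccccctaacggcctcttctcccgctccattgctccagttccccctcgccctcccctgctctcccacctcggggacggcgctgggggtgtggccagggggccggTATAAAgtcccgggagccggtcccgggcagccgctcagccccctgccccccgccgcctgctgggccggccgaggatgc
Igfbp5: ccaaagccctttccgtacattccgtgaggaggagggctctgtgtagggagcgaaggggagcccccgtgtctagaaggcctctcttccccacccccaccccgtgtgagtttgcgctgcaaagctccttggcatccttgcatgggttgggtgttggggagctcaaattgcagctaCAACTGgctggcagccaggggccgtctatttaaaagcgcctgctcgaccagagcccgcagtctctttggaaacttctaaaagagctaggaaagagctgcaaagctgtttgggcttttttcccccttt
The neighbours Igfbp2 and Igfbp5 had different start-site windows: that of Igfbp2 held 3 GC boxes and 67.0% G and C with 18 CpG dinucleotides, and that of Igfbp5 held no GC box and 56.3% G and C with 10 CpG dinucleotides. The Igfbp4 window held a TATA box that begins 28 bases before the start. Over all 6 members, a GC box was found in 2 windows (35.7% of 32851 promoter windows of this length), a TATA box in 2 (13.6%) and an E-box in 5 (72.3%). The E-box of Igfbp2 overlaps the hypoxia response core ACGTG on both strands, a motif found in 2 of the 6 windows and in 19.6% of all. The forkhead core GTTTAC (7.89% of all windows) and the AP-1 motif TGANTCA (7.81%) had 0 matches in the 6. These matches are descriptions of letters, not of binding.

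Igfbp7 and Igfbp6 made up most of the family's RNA. Compared per length of transcript as RPKM (CPM per 1000 exon bases), Igfbp7 had a median of 1860.3 RPKM over the 12 libraries and Igfbp6 of 282 RPKM, and the lowest library of each lay above the highest library of the next. Igfbp2 followed with a median of 21.7 RPKM and a range of 1.47 to 118 RPKM, which overlapped those of Igfbp3 (median 3.41), Igfbp5 (2.66) and Igfbp4 (2.01 RPKM). The place of Igfbp2 depended on the group: by mean RPKM it came next after Igfbp6 in both PNU groups and in DMSO 2 h, and last of the 6 in DMSO at 6 h. Its mean in DMSO 2 h was 7.76 ± 7.66 RPKM (SD, n = 3), with replicate 3, which stands apart, the highest. Together the 6 members took 0.250% to 0.263% of all counts with PNU and 0.240% to 0.331% with DMSO at 2 h, ranges that overlap. At 6 h they took 0.274% to 0.294% with PNU and 0.311% to 0.331% with DMSO, so that all PNU libraries lay below all DMSO libraries. Without Igfbp7 the order at 6 h was the opposite, with 0.0463% to 0.0508% with PNU and 0.0395% to 0.0416% with DMSO. Among these remaining members, only Igfbp2 was higher in every PNU library at 6 h, and for each of the others PNU and DMSO overlapped. Igfbp1, the liver-enriched relative next to Igfbp3, was at or under the floor, with at most 0.0527 CPM.

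**Figure D1:**
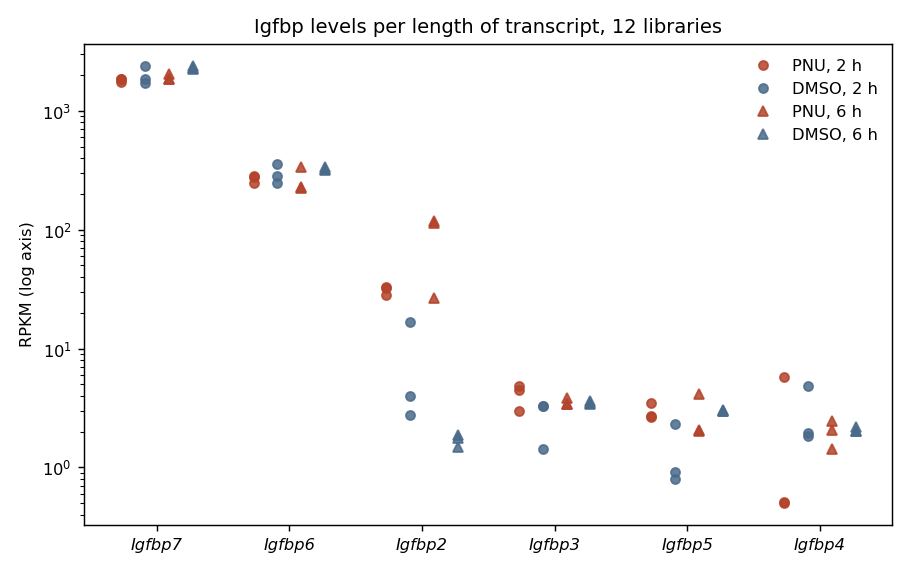
Level of each IGF-binding protein gene as RPKM on a log axis, 1 point per library, with circles for 2 h, triangles for 6 h, red for PNU and blue for DMSO. Igfbp7 and Igfbp6 stand above the rest in every library, and Igfbp2 spans 1.47 to 118 RPKM.

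Igfbp2, which binds IGF-I and IGF-II and carries an integrin-binding motif, had the widest range, 80.1-fold between its lowest and highest library. Its 2 h values were 51.7, 60.9 and 59.5 CPM in the PNU libraries, against 7.31, 5.08 and 30.6 CPM in DMSO replicates 1, 2 and 3. All 3 PNU libraries lay above all 3 DMSO libraries, and DMSO replicate 3, which stands apart, was the highest of its group. The 6 h values were 49.4, 209.8 and 218 CPM in replicates 1, 2 and 3 of PNU, against 3.25, 2.72 and 3.47 CPM in the DMSO libraries. The groups did not overlap at 6 h either, and PNU replicate 1, the other library that stands apart, was the lowest PNU library but still far above DMSO. The means were 57.4 ± 4.95 with PNU and 14.3 ± 14.1 CPM with DMSO at 2 h, and 159 ± 95.1 with PNU and 3.15 ± 0.384 CPM with DMSO at 6 h (SD, n = 3 each).

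The fitted log2 fold change of Igfbp2, PNU over DMSO, was 2.02 ± 0.66 (SE) at 2 h, a 4.06-fold difference, and 5.67 ± 0.78 at 6 h, a 50.9-fold difference. Without DMSO replicate 3 the value at 2 h was 3.23, and without PNU replicate 1 the value at 6 h was 6.10. For 6 h over 2 h the log2 fold change was 1.41 ± 0.64 with PNU, where replicate 1 of PNU 6 h lay below all PNU 2 h libraries. With DMSO it was -2.24 ± 0.70, without overlap, and -1.03 without replicate 3 of DMSO 2 h. Whether the PNU effect differed between the times was not tested.

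Other features also differed between libraries at 6 h. The Y-linked gene Ddx3y had 0.141, 7.43 and 6.74 CPM in replicates 1, 2 and 3 of PNU 6 h, against 0.0451, 0.0378 and 0.141 CPM with DMSO, so the libraries highest in Igfbp2 were those with this RNA. Xist, the RNA of the inactive X chromosome, was also highest in those libraries, at 0.439, 2.46 and 2.13 CPM with PNU, against 1.15, 1.23 and 0.969 CPM with DMSO at 6 h. At 2 h Ddx3y stood at 2.23, 0.0870 and 0.0150 CPM with PNU and at 0.0338, 0.0386 and 5.00 CPM with DMSO. Among the DMSO libraries of that time, Igfbp2 was highest in replicate 3, the one with Ddx3y (30.6 CPM, against 7.31 and 5.08 CPM). In PNU replicates 1, 2 and 3 of that time Igfbp2 stood at 51.7, 60.9 and 59.5 CPM, and so was also high in the replicates with little Ddx3y. At 2 h Xist stood at 0.133, 0.0653 and 0.0902 CPM with PNU and at 0.777, 0.888 and 0.0469 CPM with DMSO. DMSO replicates 1 and 2, the lowest in Igfbp2 at that time, were thus the highest in Xist. The 8 pericyte and smooth muscle markers summed to 4425 to 4838 CPM with PNU and 3385 to 4296 CPM with DMSO at 2 h, and to 4261 to 4389 with PNU and 3485 to 3542 CPM with DMSO at 6 h, with 7 of 8 at a median over 1 CPM. Acta2, the largest, did not overlap at 6 h (2008 to 2405 against 1621.5 to 1669 CPM), but Pdgfrb did (944 to 1391 against 1169 to 1184 CPM). The 10 Müller glia markers summed to 7417 to 7740 with PNU and 6246 to 7333 CPM with DMSO at 2 h. At 6 h they overlapped (6589 to 7652 against 6708 to 6757 CPM), as did the 8 fibroblast markers (14950 to 15880 against 15060 to 15110 CPM). The 5 leukocyte markers summed to 7.52 to 9.42 CPM with PNU and 2.00 to 2.92 CPM with DMSO at 6 h, with 1 of 5 at a median over 1 CPM and the defining marker Ptprc at most 0.235 CPM. The 6 photoreceptor and neuron markers, of which 1 had a median over 1 CPM and 3 were under the floor everywhere, summed to 33.6 to 34.5 CPM with PNU and 15.8 to 26.9 CPM with DMSO at 2 h, and to 22.1 to 52.8 CPM with PNU and 15.9 to 18.5 CPM with DMSO at 6 h. The 4 endothelial markers, none with a median over 1 CPM, summed to 2.18 to 2.76 CPM with PNU and 1.19 to 1.76 CPM with DMSO at 6 h. The 9 RPE markers, 1 with a median over 1 CPM and 3 under the floor everywhere, went the other way at 6 h, with sums of 2.95 to 4.46 CPM with PNU and 4.87 to 5.13 CPM with DMSO. Within PNU 6 h, replicate 1 was lowest in Igfbp2 and in the pericyte and endothelial sums, at 4261 and 2.18 CPM for the sums. It was highest in the leukocyte, neuron and RPE sums, at 9.42, 52.8 and 4.46 CPM. Of the neuron markers, Tubb3 stood at 52.5, 22.7 and 21.8 CPM in replicates 1, 2 and 3 of PNU 6 h. The part of these features in the result was not tested.

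**Figure D2:**
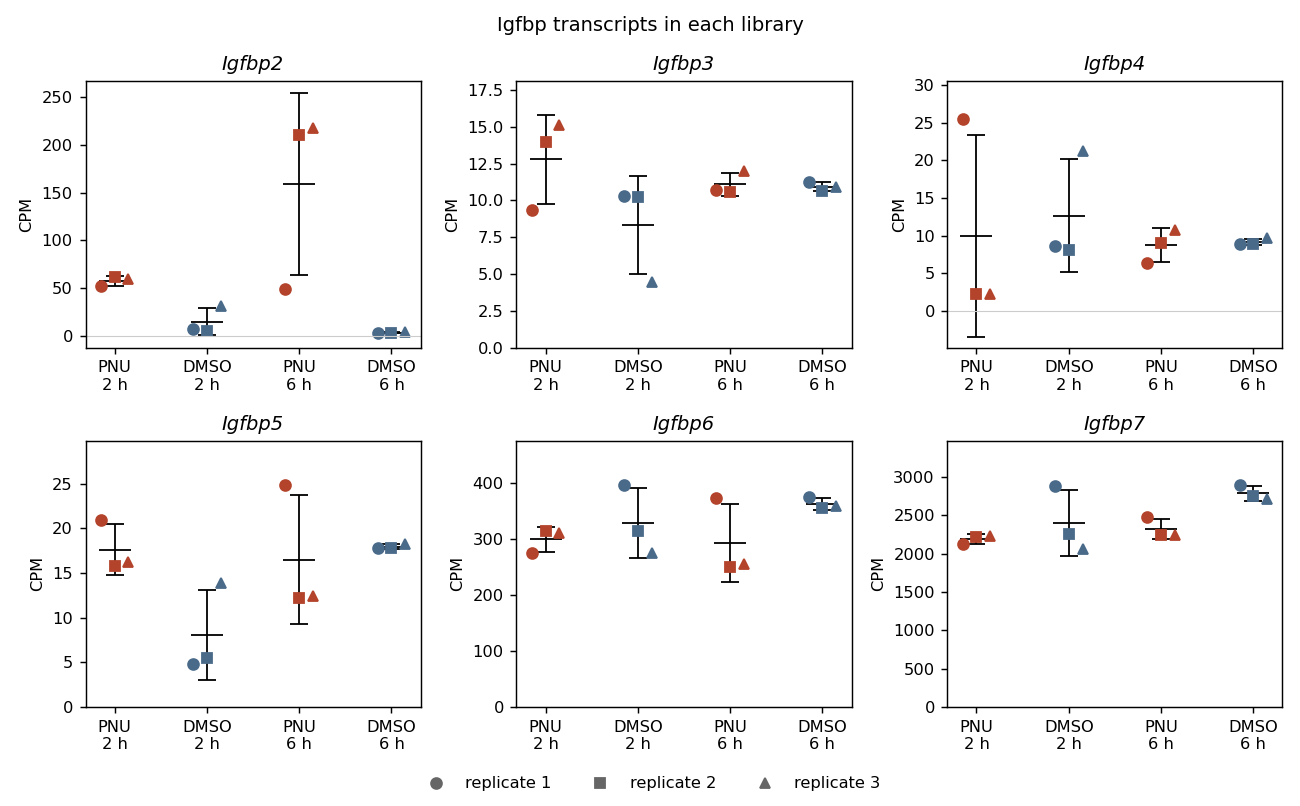
CPM of the 6 genes in each library on linear axes, with circles, squares and triangles for replicates 1, 2 and 3, and the mean with SD in black (n = 3). Igfbp2 is higher in every PNU library than in every DMSO library of the same time, while Igfbp4 is set by replicate 1 with PNU (25.4 CPM) and replicate 3 with DMSO (21.3 CPM) at 2 h.

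Igfbp5, a matrix-binding member cleaved by the pappalysin proteases, was the other member whose groups did not overlap at 2 h. It stood at 20.9, 15.8 and 16.2 CPM with PNU, against 4.80, 5.52 and 13.8 CPM with DMSO. DMSO replicate 3 again lay closest to PNU. At 6 h it stood at 24.9, 12.2 and 12.5 CPM with PNU, against 17.8, 17.8 and 18.3 CPM with DMSO, so that PNU libraries lay on both sides of DMSO. The log2 fold change, PNU over DMSO, was 1.16 ± 0.39 at 2 h (1.81 without DMSO replicate 3) and -0.11 ± 0.38 at 6 h (-0.53 without PNU replicate 1 and 0.08 without PNU replicate 2). With DMSO the gene was higher at 6 h than at 2 h in every library, by a log2 fold change of 1.12 ± 0.39 (1.77 without DMSO at 2 h replicate 3), and with PNU that value was -0.15 ± 0.38. Although Igfbp2 is its nearest neighbour, Igfbp5 was highest in PNU at 6 h replicate 1, the PNU library of that time in which Igfbp2 was lowest.

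Igfbp4, an inhibitory IGF-binding protein cleaved by Pappa, varied most inside a group. The 2 h values were 25.4, 2.26 and 2.21 CPM for replicates 1, 2 and 3 of PNU, against 8.58, 8.11 and 21.3 CPM in DMSO replicates 1, 2 and 3. The PNU libraries differed 11.5-fold among themselves and spanned the DMSO group. The log2 fold change at 2 h was -0.30 ± 0.80, but -2.48 without PNU replicate 1. Leaving out PNU replicate 2, PNU replicate 3 or DMSO replicate 3 gave 0.17, 0.18 and 0.29. At 6 h Igfbp4 stood at 6.31, 9.06 and 10.8 CPM with PNU, against 8.86, 8.92 and 9.65 CPM with DMSO, a log2 fold change of -0.06 ± 0.80. With PNU it was at 8.71 ± 2.25 at 6 h and 9.97 ± 13.4 CPM at 2 h (SD, n = 3 each). The direction of that time difference turned from -0.26 ± 0.80 to 1.91 when PNU at 2 h replicate 1 was left out, and with DMSO it was -0.51 ± 0.80.

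Igfbp3, the main IGF carrier of serum, was scarce in these cells. At 2 h it stood at 9.35, 13.9 and 15.1 CPM with PNU, against 10.3, 10.2 and 4.47 CPM with DMSO. The groups overlapped, and DMSO replicate 3 was the lowest library. The log2 fold change was 0.65 ± 0.27 at 2 h. At 6 h the values were 10.7, 10.6 and 12.0 CPM with PNU, against 11.2, 10.7 and 10.9 CPM with DMSO, and the log2 fold change was 0.04 ± 0.27. For 6 h over 2 h it was -0.26 ± 0.26 with PNU and 0.36 ± 0.27 with DMSO, where all 6 h libraries lay above all 2 h libraries.

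Igfbp6, which prefers IGF-II to IGF-I, stood at 274, 313 and 311 CPM with PNU, against 396, 314 and 275 CPM with DMSO, at 2 h. At 6 h it stood at 372, 249 and 255 CPM with PNU, against 375, 355 and 358 CPM with DMSO. PNU replicate 1 lay inside the DMSO range and the other PNU libraries below it, and the log2 fold change was -0.30 ± 0.17 (-0.10 ± 0.17 at 2 h). Igfbp7, a matrix protein of vessels with low affinity for IGFs, stood at 2121, 2221 and 2227 CPM with PNU, against 2887, 2254 and 2059 CPM with DMSO, at 2 h. At 6 h it stood at 2473, 2244 and 2240.5 CPM with PNU, against 2893, 2751 and 2710.4 CPM with DMSO. Here all PNU libraries lay below all DMSO libraries, by a log2 fold change of -0.25 ± 0.12 (-0.10 ± 0.12 at 2 h). For 6 h over 2 h, Igfbp6 differed by -0.09 ± 0.17 with PNU and 0.10 ± 0.17 with DMSO. The same differences of Igfbp7 were 0.02 ± 0.12 with PNU, without overlap in CPM but by a small margin, and 0.17 ± 0.12 with DMSO. The range over the 12 libraries was 1.59-fold for Igfbp6 and 1.40-fold for Igfbp7, against 3.37-fold or more for each of the scarcer members.

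**Figure D3:**
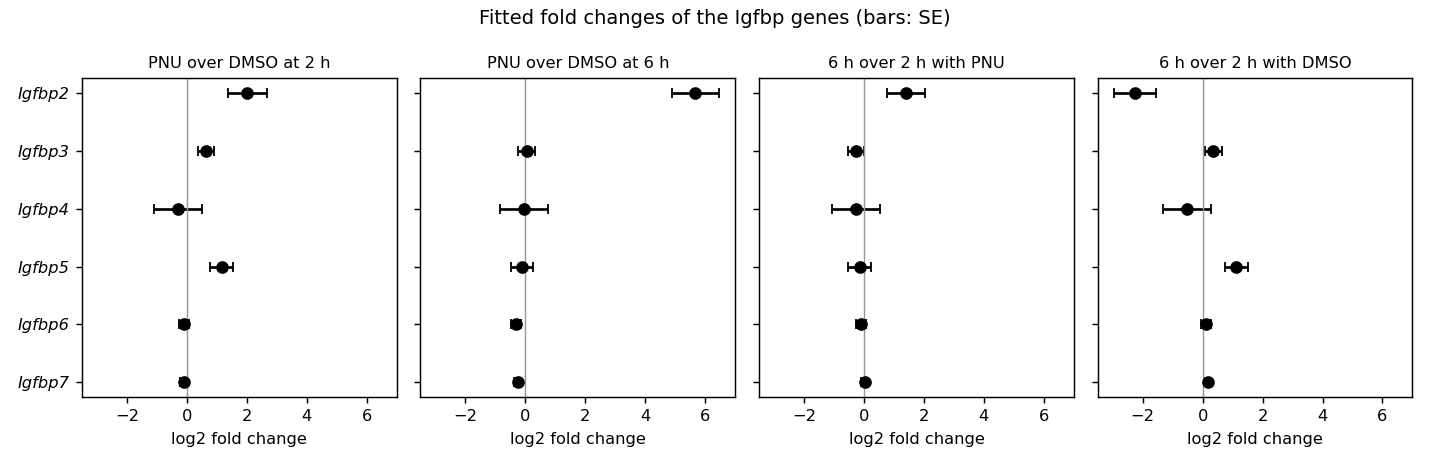
Fitted log2 fold changes of the 6 genes (points) with their SE (bars) in the 4 comparisons, n = 3 libraries per group. Igfbp2 has the largest value in the PNU comparisons, 2.02 at 2 h and 5.67 at 6 h, and Igfbp6 and Igfbp7 lie within 0.30 of 0 in all 4.

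Set against all 17164 genes tested with edgeR's quasi-likelihood test, 0 of 6 members were past an adjusted p of 0.05 at 2 h (0.291% of all genes; 3 members at an unadjusted p under 0.05, 2 called by DESeq2). At 6 h 1 of 6, Igfbp2, was past it (1.05% of all genes). For 6 h over 2 h with PNU it was 0 of 6 (16.1% of all genes; 1 member unadjusted, 0 by DESeq2), and with DMSO 0 of 6 (0% of all genes; 2 members unadjusted, 0 by DESeq2). The groups did not overlap for 2 of 6 members at 2 h (22.7% of all genes), 2 at 6 h (34.9%), 1 over time with PNU (51.7%) and 3 over time with DMSO (9.75%). Nothing is read from these counts or from the call on Igfbp2, because the members were chosen with these comparisons known. The median log2 fold change of the 6, PNU over DMSO, was 0.28 at 2 h and -0.08 at 6 h, against -0.01 and -0.0049 over all genes. The call on Igfbp2 at 6 h ended without any 1 of the 3 DMSO libraries at 6 h and when nearly identical libraries were summed, while its log2 fold change stayed between 5.38 and 6.10 in all 18 alternatives. Summing leaves 2 PNU libraries and 1 DMSO library at 6 h, the lone one assumed to vary like the other groups. A call lost with summing therefore says little about a single gene.

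The genes whose log2 CPM followed a member most closely over the 12 libraries were sought among 12722 genes, and because several libraries are nearly identical, these coefficients rest on fewer than 12 independent points. For Igfbp2 they were Ctnnd2 (Pearson's r = 0.974), Mgll (0.972) and Wnt4 (0.971). Mgll, a lipase that breaks down monoacylglycerols, ranged from 3.71 to 59.0 CPM and Wnt4, a Wnt ligand, from 1.08 to 9.78 CPM. For Igfbp4 they were Adgre5 (0.928), Gpm6b (0.915) and Gm14230 (0.883), and for Igfbp5 Ppm1e (0.917), Hacd3 (0.852) and Cep85l (0.849). Igfbp3 had weaker matches, Celsr2 (0.820), Gm17709 (0.817) and Lrp1 (0.814). Igfbp6 was matched by Inafm1 (0.960), Cacnb3 (0.954) and Cacnb1 (0.951), and Igfbp7 by Hps6 (0.968), Ptov1 (0.964) and Zfp865 (0.964).

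Of the genes next to the members on their chromosomes with a mean of at least 1 CPM, 10 are no members. Genes that overlap a member, such as Polr2b at Igfbp7, were not taken as neighbours. At 2 h, edgeR called 0 of the 10 (0.291% of all genes, 4 of the 10 at an unadjusted p under 0.05, 3 by DESeq2). At 6 h it called 1 (1.05% of all genes). That gene was Tns1, an adaptor of focal adhesions 1035346 bases to the right of Igfbp5, at 866 ± 128 with PNU and 597 ± 3.62 CPM with DMSO (SD, n = 3 each; log2 fold change 0.55 ± 0.10, edgeR adjusted p = 0.0295, 5.73e-05 to 1 over its alternatives). Rpl37a, the ribosomal protein gene 110689 bases to the left of Igfbp2, differed by -0.12 ± 0.08 at 6 h (edgeR adjusted p = 0.524). The call on Tns1 ended without any 1 of the DMSO 6 h libraries, without replicate 2 or 3 of either PNU group, and with nearly identical libraries summed. At 6 h over 2 h with PNU, 1 of the 10 was called: Adgrl3, an adhesion receptor to the right of Igfbp7, fell to 5.75 ± 2.53 CPM at 6 h, against 14.1 ± 3.66 CPM at 2 h (log2 fold change -1.36 ± 0.41, edgeR adjusted p = 0.0447, 0.000653 to 0.41 over its alternatives). Leaving out any 1 library of PNU 2 h, PNU 6 h or DMSO 6 h ended that call, as did the lack of a filter and summing. With DMSO 0 of the 10 were called over time (0 unadjusted, 0 by DESeq2). Over all genes, edgeR called 16.1% over time with PNU and 0% with DMSO. The other neighbours were Adcy1 and Tns3 beside Igfbp3, Top2a and Smarce1 beside Igfbp4, Spryd3 and Csad beside Igfbp6, and Noa1 beside Igfbp7. Tns3, a relative of Tns1, was higher in every PNU library at both times, by log2 fold changes of 0.64 ± 0.20 at 2 h and 0.57 ± 0.20 at 6 h (edgeR adjusted p = 0.085 and 0.199). Csad was lower in every PNU library at both times (-0.69 ± 0.20 and -0.31 ± 0.20, edgeR adjusted p = 0.0755 and 0.491). The groups did not overlap for 22.7% of all genes at 2 h and 34.9% at 6 h.

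Around the binding proteins, the IGF ligands differed more between libraries than their receptors did. Igf1 stood at 11.7, 10.4 and 9.55 CPM with PNU, against 3.14, 4.44 and 13.0 CPM with DMSO, at 2 h, and at 6.24, 17.5 and 15.3 CPM with PNU, against 5.23, 5.84 and 5.87 CPM with DMSO, at 6 h. In DMSO at 2 h replicate 3, which stands apart, Igf1 was above all 3 PNU libraries of that time. Igf2 stood at 0.906, 1.35 and 1.22 CPM with PNU, against 6.35, 5.83 and 1.31 CPM with DMSO, at 2 h, and at 4.85, 16.0 and 17.3 CPM with PNU, against 4.89, 5.12 and 4.95 CPM with DMSO, at 6 h. With PNU, Igf2 rose at 6 h over 2 h by a log2 fold change of 3.39 ± 0.59 (edgeR adjusted p = 0.00763), a call that ended when nearly identical libraries were summed (adjusted p = 0.41; 4e-09 to 0.41 over its alternatives). Neither ligand passed the test of PNU against DMSO (edgeR adjusted p of 0.359 and 0.0775 at 2 h, 0.249 and 0.246 at 6 h, for Igf1 and Igf2). Igf1r, the signalling receptor, lay between 193 and 235 CPM in all libraries, with log2 fold changes, PNU over DMSO, of 0.18 ± 0.07 at 2 h and 0.03 ± 0.07 at 6 h. Igf2r, which clears IGF-II, lay between 153 and 229 CPM (-0.28 ± 0.12 at 2 h and -0.01 ± 0.12 at 6 h), and Insr, the insulin receptor, between 25.0 and 34.6 CPM (0.28 ± 0.08 and 0.19 ± 0.08).

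Of the 17 genes in the list of IGF ligands, receptors and partners, 15 were tested. At 2 h, edgeR called 2 risen and 1 fallen (0.291% of all genes were called), with a median log2 fold change of -0.21 over the 15. At 6 h it called 0 (1.05% of all genes, 4 list genes at an unadjusted p under 0.05, 0 by DESeq2), with a median of 0.06. The risen genes were the receptor adaptor Irs2, at 62.1 ± 2.16 with PNU and 29.6 ± 5.07 CPM with DMSO (log2 fold change 1.10 ± 0.12, edgeR adjusted p = 0.0181), and Stc1, a stanniocalcin that can inhibit the protease of Igfbp4, at 3.62 ± 0.353 with PNU and 1.98 ± 0.290 CPM with DMSO (0.91 ± 0.15, edgeR adjusted p = 0.0366). The fallen gene was Irs1, a related adaptor, at 27.6 ± 2.03 with PNU and 91.7 ± 39.0 CPM with DMSO (-1.70 ± 0.26, edgeR adjusted p = 0.0345). These calls ended when nearly identical libraries were summed (adjusted p = 0.55), and that of Irs1 also ended without the filter on low counts. Leaving out single libraries ended those of Irs1 and Stc1 9 times in 12 and that of Irs2 8 times in 12. In these fits edgeR called 0 or 1 of all genes at 2 h, so the losses say little about single genes. With single libraries left out, the log2 fold change was 0.97 to 1.24 for Irs2, 0.83 to 1.00 for Stc1 and -2.01 to -1.44 for Irs1. All 3 calls held without replicate 1 of PNU 2 h, replicate 3 of DMSO 2 h or replicate 1 of PNU 6 h. The call of Irs2 also held without replicate 2 of DMSO 2 h. The protease Pappa, which cuts Igfbp4, did not pass: it stood at 9.20 ± 1.49 with PNU and 10.6 ± 4.00 CPM with DMSO at 2 h, and at 17.1 ± 8.77 with PNU and 12.7 ± 0.420 CPM with DMSO at 6 h, where PNU replicate 1 alone held 27.2 CPM. Tmem219, a receptor of Igfbp3, stood at 12.9 ± 1.24 with PNU and 18.4 ± 4.57 CPM with DMSO at 2 h, and at 14.8 ± 1.77 with PNU and 19.5 ± 1.12 CPM with DMSO at 6 h (edgeR adjusted p = 0.106 and 0.312). Over time with PNU, 4 of the 15 were called (16.1% of all genes). Igf2, Irs1 (1.19 ± 0.26, edgeR adjusted p = 0.0164) and the adaptor Grb10 (1.45 ± 0.33, edgeR adjusted p = 0.0187) rose, and Irs2 fell (-0.87 ± 0.12, edgeR adjusted p = 0.00324). All 4 calls ended with summing; that of Irs1 also ended without any 1 of the PNU 2 h libraries or replicate 2 or 3 of PNU 6 h, and that of Grb10 without any 1 of the PNU 2 h libraries (adjusted p up to 0.41). Grb14, a related adaptor, stood at 56.4 ± 3.95 with PNU and 62.9 ± 8.60 CPM with DMSO at 2 h, and at 68.8 ± 7.22 with PNU and 80.2 ± 1.07 CPM with DMSO at 6 h. Stc2, the other stanniocalcin, stood at 16.9 ± 5.33 with PNU and 20.0 ± 12.1 CPM with DMSO at 2 h, and at 10.3 ± 2.27 with PNU and 15.3 ± 1.18 CPM with DMSO at 6 h. Over time with DMSO, edgeR called 0 of the 15 (0% of all genes, 2 of the 15 at an unadjusted p under 0.05, 1 by DESeq2).

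**Figure D4:**
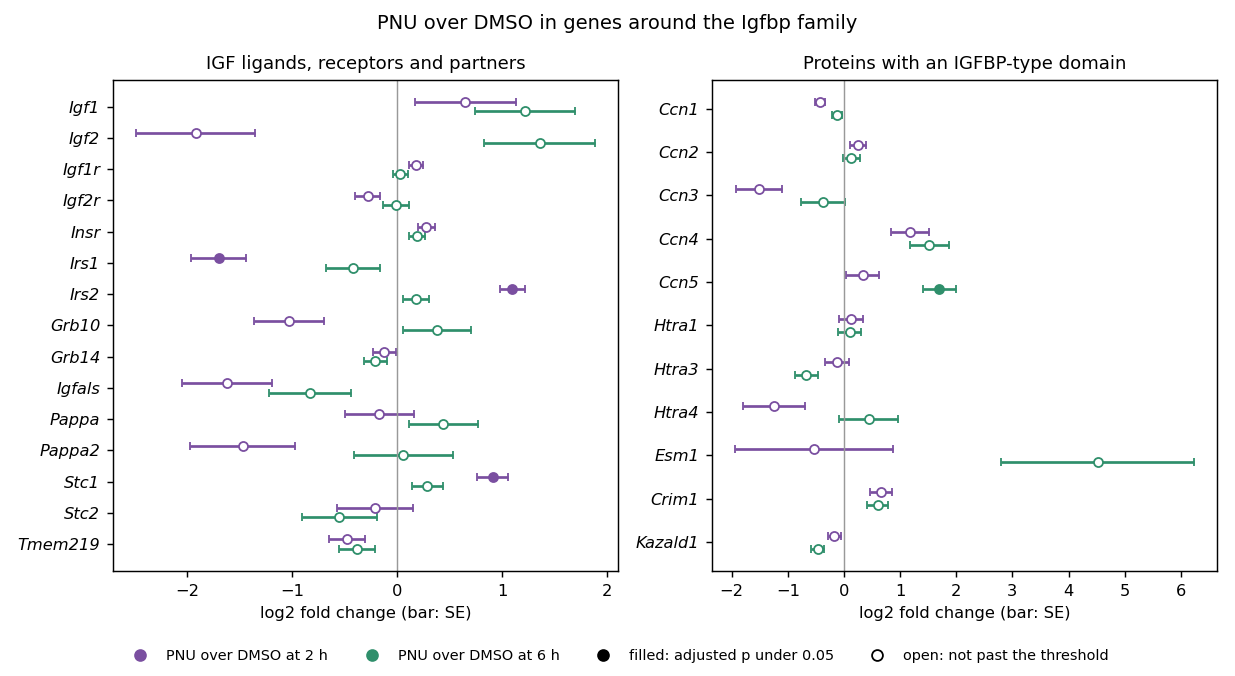
Log2 fold changes, PNU over DMSO, of the tested genes around the family, with their SE (bars), purple for 2 h and green for 6 h, and filled points for an edgeR adjusted p under 0.05. Irs1, Irs2 and Stc1 are filled at 2 h and Ccn5 at 6 h.

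Other secreted proteins carry the domain with which IGF-binding proteins hold their ligand. Of 14 such relatives, 11 were tested, with a median log2 fold change of -0.12 at 2 h and 0.13 at 6 h. At 2 h, edgeR called 0 of them (0.291% of all genes, 5 relatives at an unadjusted p under 0.05, 4 by DESeq2). At 6 h it called 1 (1.05% of all genes). That gene was Ccn5, a CCN matricellular protein, at 217, 89.4 and 93.1 CPM with PNU, against 41.8, 42.0 and 40.5 CPM with DMSO (log2 fold change 1.70 ± 0.30, edgeR adjusted p = 0.0243, 8.03e-07 to 1 over its alternatives). Unlike Igfbp2, Ccn5 was highest in PNU at 6 h replicate 1. Its call ended without any 1 of the 3 DMSO libraries at 6 h, without the filter on low counts and when nearly identical libraries were summed. Ccn4, of the same CCN family, stood at 176, 176 and 176 CPM with PNU, against 44.3, 51.8 and 143 CPM with DMSO, at 2 h, and at 118, 121 and 122 CPM with PNU, against 42.6, 41.7 and 42.1 CPM with DMSO, at 6 h, where it missed the threshold (edgeR adjusted p = 0.0704). Like Igfbp2, it did not overlap between the groups at either time and was highest of its group in replicate 3 of DMSO 2 h. Over time with PNU, 3 of the 11 relatives were called (16.1% of all genes). Ccn1 (0.41 ± 0.09, edgeR adjusted p = 0.0177) and the protease Htra4 (1.80 ± 0.55, edgeR adjusted p = 0.0478) rose, and Kazald1 fell (-0.51 ± 0.11, edgeR adjusted p = 0.0142). These calls ended with summing, that of Ccn1 also without any 1 of the PNU 2 h libraries or replicate 2 or 3 of PNU 6 h, that of Kazald1 without replicate 1 of PNU 2 h, and that of Htra4 in 12 of 18 alternatives, among them any 1 library of PNU 2 h, PNU 6 h or DMSO 6 h left out (adjusted p up to 0.41). Ccn2, another CCN protein, stood at 2061 ± 219.6 with PNU and 1775 ± 143 CPM with DMSO at 2 h, and at 1864 ± 426 with PNU and 1724 ± 5.09 CPM with DMSO at 6 h. Crim1, a membrane protein that binds growth factors, was higher in every PNU library at both times without passing the test (0.66 ± 0.19 at 2 h, 0.60 ± 0.19 at 6 h, edgeR adjusted p = 0.0748 and 0.15). Ccn1 was lower in every PNU library at both times (-0.43 ± 0.09 and -0.13 ± 0.09, edgeR adjusted p = 0.0583 and 0.541). Of the 11 tested, 2 were higher and 1 lower with PNU without overlap at 2 h, and 4 higher and 4 lower at 6 h. Over all genes, PNU and DMSO did not overlap for 22.7% at 2 h and 34.9% at 6 h. The protease Htra1 differed by 0.12 ± 0.21 at 2 h and 0.10 ± 0.21 at 6 h, and Ccn3 by -1.51 ± 0.41 at 2 h and -0.38 ± 0.39 at 6 h (edgeR adjusted p = 0.0705 and 0.694). Over time with DMSO edgeR called 0 of the relatives (0% of all genes, 3 relatives at an unadjusted p under 0.05, 0 by DESeq2).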

How the data were processed

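Poly(A) RNA of 12 libraries was measured. Per the labels' protocols, the authors used fastp 0.23.2 for trimming of paired 150-base reads, STAR 2.5.2b for alignment to GRCm38 and featureCounts (Subread 1.5.2) for counting. The deposited values are raw counts, with no normalization. Strand use and annotation release are not given in the sources used here. Symbols were found for 48970 of 49315 identifiers, positions were checked against GENCODE M21, and promoter windows came from RefSeq.

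CPM is the count over the library's total, and RPKM divides it by the deposited exon length. Groups came from the sample titles. Genes kept by filterByExpr (17164) were scaled by TMM and tested with edgeR 4.0.16 in R 4.3.3: 1 robust quasi-likelihood fit of 4 group means, 4 contrasts, Benjamini-Hochberg adjustment over all genes, threshold 0.05, common biological coefficient of variation 0.198. SE is the fold change over the square root of F. The procedure was tested on simulated counts in which all libraries shared that common variation. Those counts held no near copies and no libraries that stand apart, so the simulation does not cover these features of the data. Correlations used log2 CPM with a prior count of 2.

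The members, lists and alternatives were chosen with earlier results of these data known. Named are all members, called or abundant (at least 10 CPM) list genes, IGF ligands and receptors, expressed neighbours and the 3 genes most like each member. Other genes of the lists are given as counts. Alternatives were another scaling, no filter, DESeq2 1.42.0, the replicate number as a block, summing of nearly identical libraries, and libraries left out. Deviations of same-numbered libraries from their group means correlated with r from -0.0684 to 0.17. Over time with PNU all 3 were positive (0.17, 0.111 and 0.0993), against -0.145 to 0.101 for unlike numbers. Such weak correlations cannot decide whether the numbers pair libraries, and the main fit did not pair them.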

Additional observations from a re-analysis of the deposited data

How the results depend on the processing

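The signs of the Igfbp2 fold changes held in all 18 alternatives of each of the 4 comparisons. Of the 24 fold changes of the 6 members, 12 took both signs over the fits, 4 of them of Igfbp4, and of the 168 of all named genes 45 did. Igfbp6 and Igfbp7 at 2 h reached 0.08 without replicate 1 of DMSO 2 h, against -0.10 with all libraries. Igfbp4 for 6 h over 2 h with PNU ran from -0.74 to 1.91 with single libraries left out, 1.91 without replicate 1 of PNU 2 h. Esm1 at 2 h was -0.53 with all libraries, 3.96 without replicate 3 of DMSO 2 h and 3.95 without both libraries that stand apart. Htra4 at 6 h was 0.44 with all, and -0.54 both without replicate 1 of PNU 6 h and without both. The counts of called genes depended on the libraries, and with single ones left out they were highest without replicate 3 of DMSO 2 h. For PNU against DMSO at 2 h (50 called), the count was 140 without a filter, 2461 with DESeq2, 0 with nearly identical libraries summed (1487 at an unadjusted p under 0.05), 9080 without both libraries that stand apart and 0 to 7724 with single libraries left out. The IGF list (3 called) gave 9, 0 and 14 with DESeq2, summing and without both libraries, and 0 to 11 with single ones left out; the relatives (0 called) gave 4 with DESeq2, 7 without both and 0 to 5. At 6 h (181 called) the count was 917 with DESeq2, 0 with summing (267 unadjusted), 4981 without both and 22 to 1606; the IGF list (0 called) gave 6 without both and 0 to 2, and the relatives (1 called) 0 without a filter, 4 with DESeq2, 0 with summing, 9 without both and 0 to 5. For 6 h over 2 h with PNU (2759 called) it was 0 with summing (2236 unadjusted), 6170 without both and 566 to 6026; the IGF list (4 called) gave 0 with summing, 7 without both and 2 to 9, and the relatives (3 called) 5 with DESeq2, 0 with summing, 6 without both and 0 to 8. For 6 h over 2 h with DMSO (0 called, 818 unadjusted) it was 18 with DESeq2, 117 without both and 0 to 4; the IGF list (0 called) gave 1 with DESeq2 and 2 without both, and the relatives (0 called) 1 without both. With the replicate number as a block, 311 genes were called at 2 h, 296 at 6 h and 2 relatives at 6 h. Whether a shared number pairs libraries is not known. Fewer samples enter the summed fit; the other causes were not tested. Igfbp1 and other genes near the floor could not be compared at this depth.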
